A study of Mus musculus with 9 samples.

Results

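The dystrophin-glycoprotein complex was followed through 8 of its genes, *Dmd*, *Utrn*, *Dag1*, *Sgca*, *Sgcb*, *Sgcd*, *Dtna* and *Sspn*, in bulk RNA sequencing of mouse left ventricle. The genes were chosen by name from the 52636 Ensembl genes of the count table, with earlier results of these data known. All 8 passed the filter on low counts. They were compared between libraries that were split by their measured level of *Vdac2*. The split is therefore a description: no test was made on it, and no library was renamed by it.

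The complex is a row of proteins that spans the muscle cell membrane and ties the actin cytoskeleton to the extracellular matrix. Dystrophin sits on the inner face and binds actin at its amino-terminal end and beta-dystroglycan near its carboxy-terminal end, while alpha-dystroglycan, on the outer face, binds laminin. The sarcoglycans and sarcospan form a membrane subcomplex beside dystroglycan, and the dystrobrevins and syntrophins are cytoplasmic adaptors. The complex is known to protect the cardiomyocyte membrane during contraction, and mutations of dystrophin or of the sarcoglycans cause muscular dystrophy with cardiomyopathy.

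All animals were 16-week-old C57BL6J mice, and the table holds 9 libraries, 5 labelled VDAC2 WT (libraries 1 to 5) and 4 labelled VDAC2 KO (libraries 6 to 9). The KO carried the floxed *Vdac2* allele on both chromosomes together with a Cre transgene under the α-myosin heavy chain promoter, so that only cardiac myocytes lose the gene and the other cells of the ventricle keep it. The WT were littermates with the floxed allele or the Cre alone, and the labels do not say which of these each library was. *Vdac2* did not follow the deposited labels in every library. It was at 20.2, 21.3, 20.5 and 19.1 CPM (counts scaled to the normalized library size) in libraries 1, 5, 7 and 9, called Vdac2-low here. It was at 366, 365, 384 and 421 CPM in libraries 2, 4, 6 and 8, called Vdac2-high. Library 3, at 58.5 CPM, lay between the 2 sets but under the 100 CPM that bounded the low set, and was kept apart. Each set holds 2 libraries labelled WT and 2 labelled KO.

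Total counts ran from 27345052 to 44673988 per library. Libraries labelled WT were sequenced in lane 1 and those labelled KO in lane 2. The effects of label and lane therefore cannot be told apart, whereas the Vdac2-low and Vdac2-high sets have 2 libraries in each lane. *Xist*, the X-inactivation RNA, followed the label too, at 335 to 587 CPM for KO and no more than 0.152 CPM for WT. The study used mice of both sexes, and a difference of sex that goes with *Xist* cannot be told apart from label and lane. Library 3 stood apart from the others. Mitochondrially encoded genes took 9.07% of its counts against 16.8% to 19.2% elsewhere. Its 10 cardiomyocyte markers summed to 56001 CPM against at least 144263 CPM elsewhere. The data exclusions listed with the study state that a WT sample was left out for poor RNA quality, without naming it in the sources used here. Of the 10 skeletal muscle markers, *Myod1* and *Myf6* were under 3 counts in every library and 4 passed the filter on low counts. The list summed to 2.82 to 5.89 CPM outside library 3 and 8.01 CPM in it.

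*Dmd* encodes dystrophin, the rod-shaped protein that links actin to the membrane. It lies on the X chromosome of GRCm38 from 82948870 to 85206141 on the plus strand (ENSMUSG00000045103), and exons of its 14 annotated transcripts cover 1.05% of that span. Its level was 917, 958, 913 and 866 CPM in the Vdac2-high libraries 2, 4, 6 and 8. In the Vdac2-low libraries 1, 5, 7 and 9 it was 553, 542, 588 and 502 CPM, and in library 3 it was 341 CPM. Every Vdac2-low library lay under every Vdac2-high library, with a gap of 277 CPM between the sets. The median of the low set was 59.9% of that of the high set, a log2 ratio of -0.74. Within lane 1 the log2 ratio was -0.78 and within lane 2 it was -0.71, with no overlap in either lane. With 2 libraries against 2, 23.3% of all tested genes in lane 1 and 17.1% in lane 2 were lower without overlap too. The log2 ratio of -0.74 over both lanes was rank 157 from the lowest among the 16322 tested genes. Between 12626 and 34415 reads were counted on *Dmd* in each library, so counting error was small beside these differences. The counts are of the whole gene and do not tell the full-length transcript from the short ones that start far downstream.

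The annotated starts of *Dmd* include one that gives the full-length transcript and one far downstream in the gene. The 250 bases before each are shown because *Dmd* had the lowest log2 ratio of the 8 genes, and those before *Sgca* because it had the next lowest over both lanes together, although within lane 2 *Dag1* was lower. Capitals mark matches on either strand to the CArG box (the site of serum response factor), the MEF2 site, the GC box GGGCGG, the TATA box TATAAA and the M-CAT element CATTCC. The sequences are from RefSeq on GRCm38.p6, read along the gene's strand.
Dmd, full-length start, chrX:82948620-82948869, plus strand: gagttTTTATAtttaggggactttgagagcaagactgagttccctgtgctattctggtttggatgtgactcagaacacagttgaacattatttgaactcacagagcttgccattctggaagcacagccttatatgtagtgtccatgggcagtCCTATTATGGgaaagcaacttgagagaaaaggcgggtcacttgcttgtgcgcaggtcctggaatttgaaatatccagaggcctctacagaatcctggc
Dmd, downstream start, chrX:85048045-85048294, plus strand: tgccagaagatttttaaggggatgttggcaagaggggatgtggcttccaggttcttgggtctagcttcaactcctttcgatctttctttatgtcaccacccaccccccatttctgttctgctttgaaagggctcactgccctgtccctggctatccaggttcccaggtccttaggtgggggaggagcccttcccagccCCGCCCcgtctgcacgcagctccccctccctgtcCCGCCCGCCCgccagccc
Sgca, chr11:94976328-94976577, minus strand: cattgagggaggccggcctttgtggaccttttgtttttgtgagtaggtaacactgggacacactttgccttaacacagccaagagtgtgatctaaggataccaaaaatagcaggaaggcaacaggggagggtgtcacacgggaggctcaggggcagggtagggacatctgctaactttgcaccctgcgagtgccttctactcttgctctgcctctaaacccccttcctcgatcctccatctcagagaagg
The window before the full-length *Dmd* start held 1 CArG box, which began 98 bases before the start, and 1 TATAAA on the opposite strand, which began 245 bases before it. A CArG box was found in 1.47% of the 32851 windows of this length in the RefSeq table and TATAAA in 12.4%. The downstream window held 3 matches to GGGCGG, of which the 2 nearest the start overlap, against 32.7% of all windows with at least 1. The *Sgca* window held none of the motifs marked in capitals. The E-box CANNTG, which is not marked and is in 66.2% of all windows, occurred 2 times before the full-length *Dmd* start, 1 time before *Sgca* and 0 times in the downstream *Dmd* window. The MEF2 site and CATTCC, in 0.508% and 12.6% of all windows, were in none of the 3. A match is a run of letters and says nothing about binding in these hearts.

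**Figure D1:**
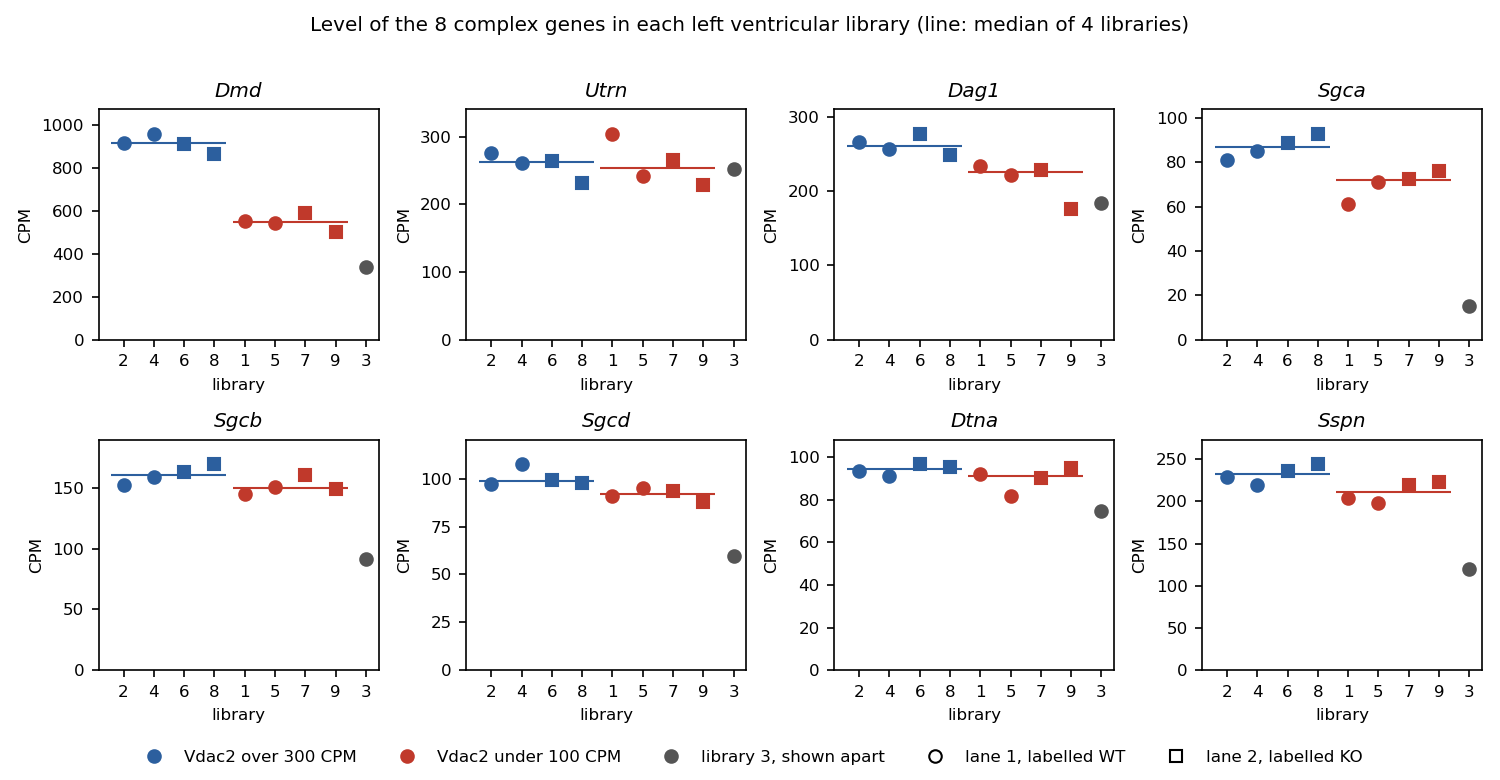
Level of each of the 8 genes in every library, in CPM on axes that start at 0, with the 4 Vdac2-high libraries in blue, the 4 Vdac2-low libraries in red, library 3 in grey, circles for lane 1 (labelled WT), squares for lane 2 (labelled KO) and a line at the median of each set of 4. *Dmd* lies at 866 to 958 CPM in the high set and 502 to 588 CPM in the low set, while *Utrn* overlaps.

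*Utrn* encodes utrophin, the dystrophin paralog that can take dystrophin's place at the membrane. It is on chromosome 10 from 12382188 to 12869365 on the minus strand (ENSMUSG00000019820). Its level was 275, 260, 264 and 232 CPM in libraries 2, 4, 6 and 8, against 304, 242, 265 and 228 CPM in libraries 1, 5, 7 and 9, and 252 CPM in library 3. The sets overlapped, with both the highest and the lowest level in the low set. The log2 ratio of medians was -0.047 over all, 0.028 in lane 1 and -0.0080 in lane 2. Library 3, which was far below the high set for most of the genes, was at 96.1% of its median for *Utrn*. The paralogs can be told apart at the 50-base read length, since 0 of the 23877 distinct 50-base stretches of *Dmd* transcripts occurred in a transcript of another gene. Of those of *Utrn*, 3 of 17140 did.

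The number of *Utrn* counts per *Dmd* count was 0.300, 0.272, 0.289 and 0.268 in the Vdac2-high libraries 2, 4, 6 and 8. It was 0.549, 0.448, 0.451 and 0.454 in the Vdac2-low libraries 1, 5, 7 and 9, and 0.740 in library 3. The sets did not overlap, and the medians stood in a ratio of 1.61. This follows from the *Dmd* level, as *Utrn* itself overlapped. Between the deposited labels the ratio was 0.462 ± 0.192 (SD, n = 5) under the WT label against 0.365 ± 0.101 (SD, n = 4) under the KO label, a difference within the spread of the libraries (exact permutation test of the log2 ratio, two-sided, p = 0.42). The log2 difference between the labels was -0.28 with every library, -0.085 without library 3 and -0.45 without library 4, so that its size rested on single libraries.

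**Figure D2:**
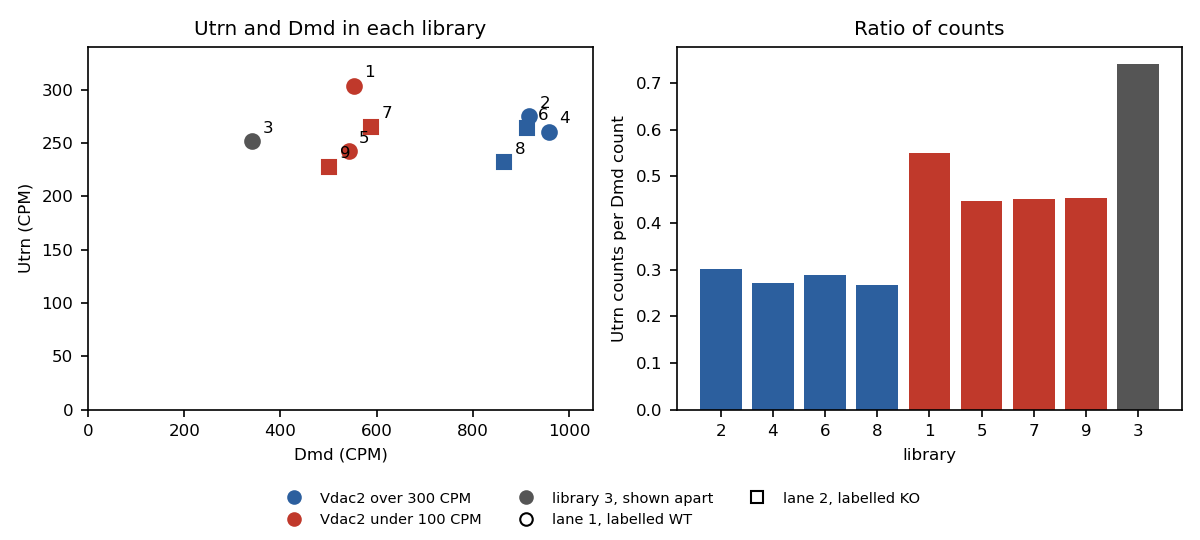
Left, *Utrn* against *Dmd* in CPM, with each library numbered, and right, *Utrn* counts per *Dmd* count in each library as bars from 0. Colours give the Vdac2 set and marker shapes the lane and label. *Dmd* separates the sets on the horizontal axis, *Utrn* does not on the vertical axis, and the count ratio is 0.268 to 0.300 in the high set and 0.448 to 0.549 in the low set.

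*Dag1* encodes both dystroglycans, cut from a single precursor, and is on chromosome 9 from 108204634 to 108263958 on the minus strand (ENSMUSG00000039952). It was at 265, 256, 277 and 248 CPM in libraries 2, 4, 6 and 8, and at 233, 222, 228 and 176 CPM in libraries 1, 5, 7 and 9. In library 3 it was at 184 CPM. The sets did not overlap, but the gap between them was only 15.0 CPM, and library 9 lay well below the other Vdac2-low libraries. The log2 ratio of medians was -0.21, with -0.19 in lane 1 and -0.38 in lane 2, which holds library 9.

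Of the sarcoglycan genes among the 8, *Sgca* and *Sgcd* were lower without overlap over both lanes together, and *Sgcb* overlapped. Differences between these genes were not tested. *Sgca*, for alpha-sarcoglycan, which is restricted to striated muscle, is on chromosome 11 from 94962791 to 94976327 on the minus strand (ENSMUSG00000001508). It was at 80.8, 85.1, 88.8 and 92.6 CPM in libraries 2, 4, 6 and 8, and at 61.2, 71.2, 72.3 and 75.9 CPM in libraries 1, 5, 7 and 9. The sets did not overlap, by 4.87 CPM, and the log2 ratio of medians was -0.28 (-0.32 in lane 1, -0.29 in lane 2). In library 3 *Sgca* was at 15.2 CPM, or 17.4% of the median of the Vdac2-high set, the lowest such share of the 8 genes.

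*Sgcd*, for delta-sarcoglycan, is on the same chromosome from 46896253 to 47988969 on the minus strand (ENSMUSG00000020354). It was at 97.3, 108, 99.2 and 97.9 CPM in the Vdac2-high libraries 2, 4, 6 and 8, and at 90.9, 95.2, 93.6 and 87.7 CPM in the Vdac2-low libraries 1, 5, 7 and 9. Here too the sets did not overlap, but the gap was 2.05 CPM and the log2 ratio -0.095. *Sgcb*, for beta-sarcoglycan, is on chromosome 5 from 73632749 to 73647790 on the minus strand (ENSMUSG00000029156). It ranged from 152 to 169 CPM in the high set and from 145 to 161 CPM in the low set, with a log2 ratio of -0.10. Its sets overlapped over both lanes together, although within each lane every low library lay under every high library. With 2 libraries against 2, this held for 23.3% of all tested genes in lane 1 and 17.1% in lane 2. In library 3 *Sgcd* was at 59.4 CPM and *Sgcb* at 91.3 CPM.

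*Sspn* encodes sarcospan, the small membrane protein that joins the sarcoglycan subcomplex, and is on chromosome 6 from 145931641 to 145965223 on the plus strand (ENSMUSG00000030255). It was at 219 to 244 CPM in the Vdac2-high set and 198 to 224 CPM in the Vdac2-low set, with a log2 ratio of -0.14. As for *Sgcb*, the sets overlapped over all but not within a lane, where the same background shares of 23.3% and 17.1% apply. *Dtna* (ENSMUSG00000024302), on chromosome 18, encodes alpha-dystrobrevin, a cytoplasmic relative of dystrophin that binds syntrophins. It was at 91.4 to 96.7 CPM in the high set and 81.6 to 94.97 CPM in the low set, with a log2 ratio of -0.053 and overlap. In library 3 *Sspn* was at 120.0 CPM and *Dtna* at 74.7 CPM. Exons of *Sspn* share 69 bases with a gene on the opposite strand, which was at most at 0.460 CPM. Those of *Dtna* share 90 bases with one at most at 0.304 CPM.

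The level was thus lower in every Vdac2-low library than in every Vdac2-high library for 4 of the 8 genes, *Dmd*, *Sgca*, *Dag1* and *Sgcd*, and higher for 0. Of all 16322 tested genes, 4.93% were lower and 7.16% higher without overlap. The 8 genes were chosen with earlier results of these data known, so setting them against these shares is a description and no test. Within lane 1 alone 6 of the 8 were lower without overlap and within lane 2 alone 7, but with 2 libraries against 2 this held for 23.3% and 17.1% of all tested genes as well. The median log2 ratio of the 8 genes was -0.12, against 0.0050 over all tested genes, and the 8 ratios were all below 0, against 7993 of the 16322. With plain library totals as the scale, however, *Utrn* (0.023) and *Dtna* (0.0066) were above 0, and 3 of the 8 were lower without overlap, against 2.66% of all tested genes on that scale. *Utrn* was also above 0 without library 5 or library 9 (0.016 in each case) and within lane 1. *Dmd* stood at percentile 0.96 of the log2 ratios of all tested genes, *Sgca* at 8.88 and *Dag1* at 13.3, and the other 5 lay between percentiles 21.6 and 38.5. The 8 genes together came to 2045 to 2137 CPM in the high set and 1537 to 1718 CPM in the low set, and *Dmd* made up most of the difference. In bulk tissue, fewer cardiomyocytes and less RNA per cardiomyocyte cannot be told apart.

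**Figure D3:**
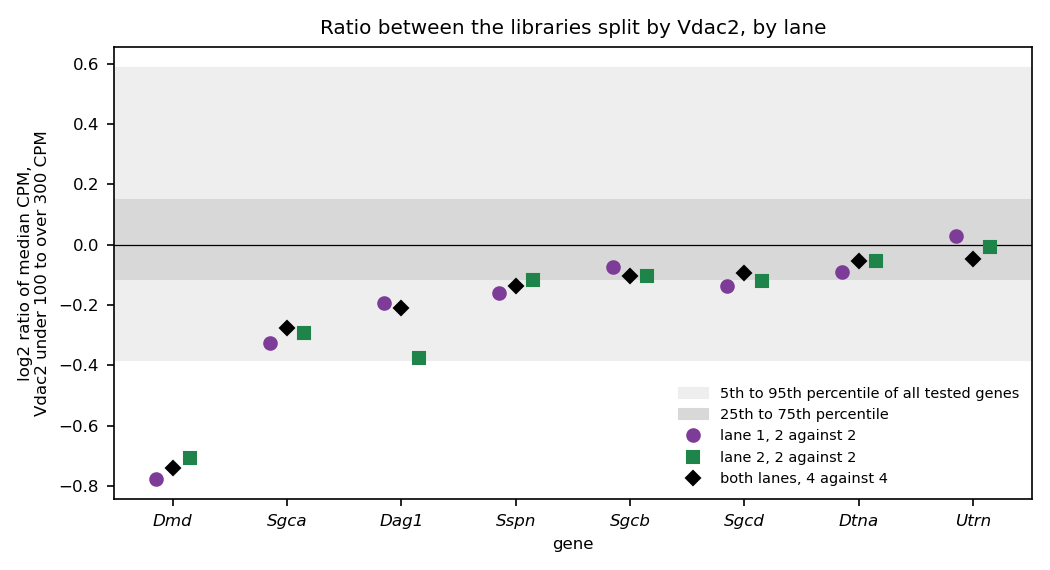
Log2 ratio of median CPM between the Vdac2-low and Vdac2-high libraries for each of the 8 genes, with circles for lane 1 and squares for lane 2 (2 libraries against 2) and diamonds for both lanes (4 against 4). The light and dark bands are the ranges from the 5th to the 95th and from the 25th to the 75th percentile of all tested genes. *Dmd*, at -0.74, is the only one of the 8 whose diamond lies under the 5th percentile of -0.38.

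Markers of cardiomyocytes moved with the split as well. Their 10 genes summed to 164256 to 180660 CPM in the Vdac2-high libraries and 144263 to 156730 CPM in the Vdac2-low libraries. Of the 10, 2 were lower without overlap (*Ttn* and *Myl3*), against 4.93% of all tested genes when scaled to the library, and none was at 0. The genes of the complex were therefore also set against these markers in the same library, a scale chosen after the values were seen, on which the median log2 ratio of all tested genes moved from 0.0050 to 0.19. *Dmd* was at 5.02 to 5.83 per 1000 counts of the markers in the high set and 3.38 to 3.76 in the low set, still without overlap, and at 6.08 in library 3. The log2 ratio was -0.51 on this scale. On it 0.79% of all tested genes were lower and 23.3% higher without overlap. *Dag1* (log2 ratio -0.045), *Sgca* (-0.081) and *Sgcd* (0.059) overlapped on this scale, so that *Dmd* was the only one of the 8 that was lower without overlap. *Dtna* lay higher without overlap (0.10), but overlapped again when *Ttn*, 56.0% to 71.3% of the marker counts, was left out of the markers. *Dmd* did not (7.67 to 9.88 against 11.8 to 14.6 per 1000).

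**Figure D4:**
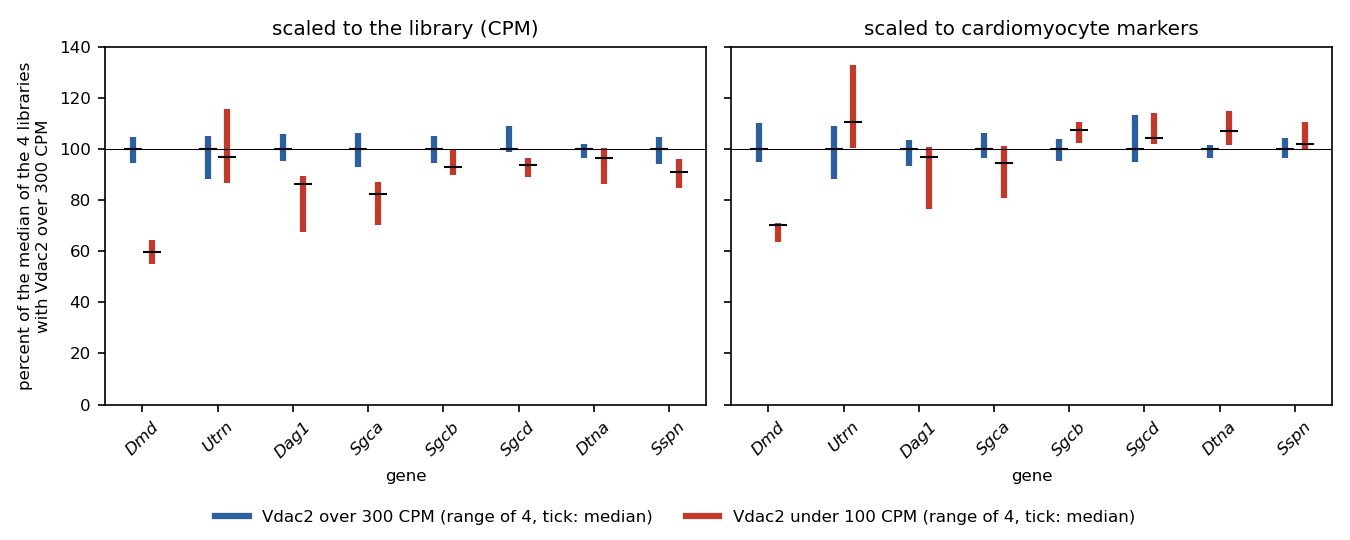
Range of the 4 Vdac2-high (blue) and 4 Vdac2-low (red) libraries for each gene, as a percent of the median of the high set, with ticks at the medians, scaled to the library on the left and to the summed cardiomyocyte markers on the right. *Dmd* has a median of 59.9% on the left and stays apart on the right, whereas *Dag1*, *Sgca* and *Sgcd* are apart on the left only. The right scale shifts all genes up: the median log2 ratio of all tested genes is 0.0050 on the left and 0.19 on the right. The share lower without overlap is 4.93% on the left and 0.79% on the right.

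Markers of some other cells also moved with the split, and their part in the values above was not tested. Scaled to the library, 4.93% of all tested genes were lower and 7.16% higher without overlap. The counts in this paragraph are to be read against these shares. The 10 macrophage markers summed to 376 to 553 CPM in the Vdac2-high libraries and 608 to 849 CPM in the Vdac2-low libraries, with 6 of 10 higher without overlap, and to 1892 CPM in library 3. The 10 fibroblast markers summed to 2232 to 2757 CPM, 2900 to 3014 CPM and 5709 CPM in the same order, with 3 of 10 higher. Endothelial markers were at 885 to 1036 CPM, 757 to 912 CPM and 580 CPM, so that their sums overlapped, with 2 of 10 lower. The summed smooth muscle and pericyte markers overlapped too (2034 to 2277 against 2023 to 2220 CPM), with 1 of 10, *Kcnj8*, lower without overlap. Schwann and neuronal markers summed to at most 24.2 CPM outside library 3, and 1 of their 6 tested genes was higher. The atrial list was mostly *Nppa*, which the ventricle also makes under load. Of the 5 tested genes of that list, 2 (*Nppa* and *Myl4*) were higher without overlap. *Nppa* was at 72.8 to 105 CPM in the high set, 157 to 1523 CPM in the low set and 3347 CPM in library 3. The skeletal muscle list summed to 2.82 to 3.58 CPM in the high set, 3.64 to 5.89 CPM in the low set and 8.01 CPM in library 3. Of its 4 tested genes 1, *Tnnt3*, was higher without overlap.

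Between the deposited labels none of the 8 genes passed. With edgeR's quasi-likelihood fit and Benjamini-Hochberg adjustment, 0 of 8 were called at 0.05, against 0.0551% of the 16322 tested genes. At an unadjusted p of 0.05 the number was also 0 of 8 by edgeR, DESeq2 and limma with library quality weights, where 6.11%, 8.15% and 13.6% of all tested genes passed, so that 0 of 8 is near the background. For *Dmd* the mean was 662 ± 266 CPM (SD, n = 5) under the WT label and 717 ± 203 CPM (SD, n = 4) under the KO label. Its log2 fold change was 0.12 with a standard error of 0.33, and edgeR's adjusted p was 0.90. The other 7 had log2 fold changes from -0.11 for *Utrn* to 0.39 for *Sgca*, and the lowest adjusted p, that of *Sspn*, was 0.69. Without library 3 the log2 fold change of *Sgca* was 0.14 and that of *Dmd* was -0.058, the lowest adjusted p of the 8 was 0.57 and 0 of 8 were called, against 0.382% of all genes tested. Since *Vdac2* does not follow these labels throughout, each label holds libraries from both ends of the *Dmd* range. The labels do not say that each library is a separate animal. The study states its sample sizes in mice, for RNA sequencing among other assays, but does not tie a library to an animal. The p-values therefore measure the spread between these libraries. Lane and *Xist* level went with the label, so an effect of lane or sex cannot be told apart from that of the label.

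Per length of exon, *Sgca* had the highest level in the Vdac2-high libraries, at 46.6 to 53.4 CPM per kb, and overlapped with *Sspn* at 43.9 to 48.8. *Dag1* followed at 39.1 to 43.5, *Sgcb* at 37.6 to 41.8 and *Dmd* at 36.4 to 40.2 CPM per kb, each overlapping with the next. *Utrn* was at 13.6 to 16.1, *Sgcd* at 11.8 to 13.0 and *Dtna* at 5.40 to 5.71 CPM per kb, without overlap between these neighbours. In the Vdac2-low libraries *Dmd* was at 21.1 to 24.7 CPM per kb, under *Dag1* at 27.7 to 36.7 without overlap and above *Utrn* at 13.3 to 17.8. In library 3 *Sgca* was at 8.74 CPM per kb, under both *Dmd* (14.3) and *Utrn* (14.7). The order depends on the length used, which here was that of all annotated exons together. With the longest coding transcript in its place, the median over the 9 libraries moved from 24.7 to 39.5 CPM per kb for *Dmd* and from 11.5 to 38.9 CPM per kb for *Sgcd*. *Dmd* then had rank 1 of the 8 in the Vdac2-high set (median 61.3 CPM per kb) and rank 6 in the Vdac2-low set (36.7 CPM per kb), where the union of exons had put it at rank 5 in both. *Dtna* had rank 8 in both sets with either length.

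Other subunits outside the 8 were read from a list of 13 genes, of which 10 were tested. Without overlap, 2 were lower and 1 was higher in the Vdac2-low libraries, where 4.93% of all tested genes were lower and 7.16% higher. The counts in the lists that follow are to be read against the same shares. The higher gene was *Aqp4*, a water channel that the complex anchors at the membrane. It was at 9.87, 11.5, 10.9 and 10.7 CPM in libraries 2, 4, 6 and 8 and at 23.8, 14.6, 19.9 and 28.5 CPM in libraries 1, 5, 7 and 9, a log2 ratio of 1.01, and at 1.89 CPM in library 3. *Sgce*, the epsilon-sarcoglycan gene expressed beyond muscle, overlapped at 17.4 to 19.98 and 18.0 to 21.1 CPM. *Sgcz*, *Nos1* and *Kcnj10* did not pass the filter on low counts.

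On the outer side, 15 of 16 matrix ligand genes were tested, of which 2 were lower and 3 higher without overlap. *Lama2*, the laminin chain of the muscle basement membrane, overlapped at 330 to 364 CPM in the Vdac2-high and 268 to 336 CPM in the Vdac2-low libraries. *Lama5*, another laminin alpha chain, was lower without overlap, at 100.5 to 122 and 55.1 to 92.4 CPM, a log2 ratio of -0.53. *Slit2*, a secreted guidance protein that binds dystroglycan, was higher at 15.8 to 17.6 and 25.3 to 39.4 CPM, a log2 ratio of 0.81. *Nrxn2*, for a neurexin, was higher at 0.987 to 1.27 and 1.34 to 2.26 CPM, a log2 ratio of 0.90. Of the 18 genes for the glycan by which dystroglycan binds laminin, 17 were tested, 2 were lower and 0 higher without overlap. One of them was *B3galnt2*, at 46.1 to 49.8 and 40.6 to 45.3 CPM, a log2 ratio of -0.097, and the median of the list was -0.072.

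Inside the cell, none of the 13 tested cytoskeleton and anchoring genes was apart between the sets, and their median log2 ratio was -0.015. With 4.93% and 7.16% of all tested genes apart, 0 of 13 is near the background. *Des*, for desmin, was at 1073 to 1132 CPM in the Vdac2-high and 974 to 1394 CPM in the Vdac2-low libraries. Of 13 tested genes for membrane repair and caveolae, 0 were lower and 2 higher without overlap. These were *Anxa1* (26.8 to 32.3 and 38.7 to 50.2 CPM, log2 ratio 0.62) and *Anxa2* (62.4 to 73.3 and 86.8 to 98.7 CPM, log2 ratio 0.37), which encode annexins that bind membranes in a calcium-dependent way. Both are also made by cells other than cardiomyocytes, and both were highest in library 3, at 177 and 597 CPM. Of the 12 integrin and costamere genes, which form the other laminin receptor system of muscle, 1 was lower without overlap. It was *Fermt2*, for kindlin-2, at 196 to 204 and 173 to 183 CPM, a log2 ratio of -0.18. None of the partner genes in these 6 lists was called between the deposited labels at an adjusted p of 0.05 by edgeR, where the lowest was 0.68, and 3 had an unadjusted p under 0.05, against 6.11% of all tested genes.

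**Figure D5:**
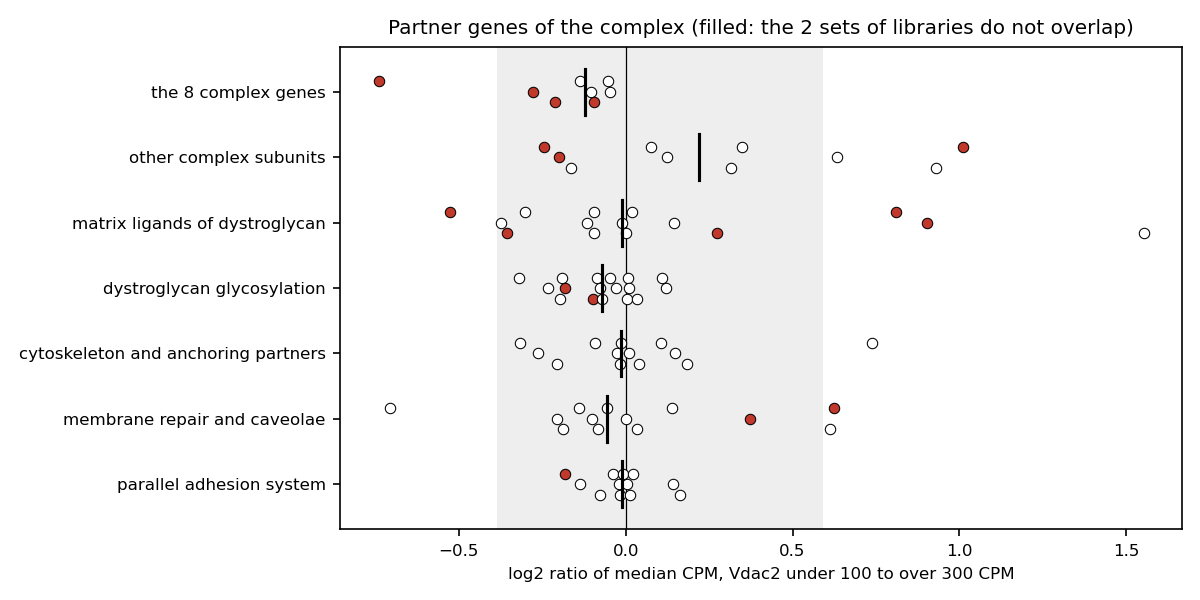
Log2 ratio of median CPM between the Vdac2-low and Vdac2-high libraries for each tested gene of the 8 and of the 6 partner lists, filled where the sets do not overlap, with a bar at the median of each list and a band from the 5th to the 95th percentile of all tested genes. *Dmd* is the leftmost filled point at -0.74. In the other lists *Aqp4* (1.01), *Nrxn2* (0.90) and *Slit2* (0.81) are the filled points farthest to the right.

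The genes whose levels followed each of the 8 most closely over the 9 libraries were found by the root-mean-square distance between log2 CPM values centred on each gene's mean, among tested genes with a mean over 10 CPM. For *Dmd* they were *Rps6ka2* (distance 0.12) and *Scube2* (0.15), against a spread of 0.49 for *Dmd* itself. *Rps6ka2*, a ribosomal S6 kinase gene, was at 34.4 to 37.4 CPM in the Vdac2-high and 22.1 to 25.2 CPM in the Vdac2-low libraries, and at 13.1 CPM in library 3. The *Sgca* pattern was nearest to those of *Gstk1* (0.065) and *Hadha* (0.071), a mitochondrial fatty acid oxidation gene, against a spread of 0.76 for *Sgca* itself, with library 3 included. *Dag1* was nearest to *Cacfd1* (0.046) and *Tor1aip1* (0.068). The remaining 5 genes had neighbours at 0.037 to 0.059.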

How the data were processed

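Total RNA of the left ventricle was depleted of ribosomal RNA and sequenced as stranded libraries. The authors deposited raw counts of reads per Ensembl gene, and per the labels these were made with STAR 2.7.2c and featureCounts 1.6.3 on GRCm38. The annotation release and the strand setting are not given in the sources used here. No column was left out.

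Symbols, positions and exon lengths were taken from GENCODE M21, which matched 52489 of 52636 identifiers (1 list gene by its older symbol). Libraries were grouped by the deposited labels for every test. The test was edgeR 4.0.16 (R 4.3.3) with filterByExpr, TMM and the quasi-likelihood F-test, adjusted over all tested genes, and was tested on simulated data. These had the same dispersion for every gene, no library that stood apart as library 3 does, and no *Vdac2* split within a label. A floor of 3 counts was 0.0693 to 0.114 CPM, which covers counting error only. The split by *Vdac2* was described by values, medians and overlap, with no test.

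The 8 genes, the split and the lists were chosen with earlier results of these data known. Partner genes were named as the 3 with the largest log2 ratio per list among those over 1 CPM without overlap in all and in each lane, and 2 nearest genes for each of the 8. Some of these are not reported here. Others named were chosen after their values were seen. *Vdac2* thresholds were 100 and 300 CPM. Alternatives were DESeq2 1.42.0, RLE and upper-quartile factors, other filters, limma 3.58.1 quality weights, mitochondrial genes left out, plain library totals, each library left out, each lane alone and library 3 placed with the low set. Another transcript length and the scaling to cardiomyocyte markers, with and without *Ttn*, were added after the data were seen. Promoters for 7 of the 8 genes were in the RefSeq table.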

Additional observations from a re-analysis of the deposited data

Results flagged for a closer look

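In the libraries labelled WT, library 3 stood far below the other 4 for *Sgcb*, at 91.3 CPM, and for *Sspn*, at 120.0 CPM, by Dixon's test at the 95% level. These were 2 of 18 groups tested, and chance gives about 5%. Library 3 also had the lowest share of mitochondrially encoded counts, and the cause was not tested.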

How the results depend on the processing

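The count of 4 genes lower without overlap stayed between 4 and 5 with each library left out, where 6.11% to 8.30% of all tested genes were lower without overlap, and was 6 within lane 1 and 7 within lane 2, where only 2 libraries face 2. Between the labels, 0 of the 8 genes passed under any alternative, while the count over all genes moved from 9 to 70 with DESeq2, 79 with quality weights, 0 (875 at an unadjusted p of 0.05) with at least 10 counts in every library, and between 5 and 62 with a library left out, the 62 being without library 3. The sign of small log2 fold changes between labels reversed for *Dag1* (main 0.00086) at -0.0044 with DESeq2, -0.0044 with RLE, -0.0057 with quality weights and -0.0026 without mitochondrial genes, and for *Sgcd* at -0.026 with quality weights. With each library left out, it ranged from -0.093 to 0.11 for *Dag1*, -0.058 to 0.29 for *Dmd* and -0.053 to 0.14 for *Sgcd*. The cause was not tested. The log2 ratio of *Dmd* between the Vdac2 sets ranged from -0.76 to -0.73 with a library left out. Per cardiomyocyte markers, the count of genes higher without overlap moved from 1 to 0 without *Ttn* (22.6% of all tested genes), to 2 without library 1, 4 or 9 (27.2%, 29.2% and 29.7%), to 2 within lane 1 and to 4 within lane 2 (54.0% and 48.7% of all tested genes), and the count lower from 1 to 2 within lane 1 (6.54%). No paired analysis was possible because the labels share no replicate numbers.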
